A study of Mus musculus with 12 samples.

Results

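The guidance genes of the Eph-ephrin, semaphorin-plexin and Slit-Robo systems comprised 57 of the 27548 named genes on the array. They were taken by gene symbol. The 31 ligands were 8 ephrins, 20 semaphorins and 3 Slits, and the 26 receptors were 14 Eph receptors, 9 plexins and 3 Robos. Of these genes, 54 were tested because at least 1 fraction had them well above background on each of its 3 arrays, and 46 were so on all 12 arrays. Epha2, Sema3d and Sema7a did not pass that filter.

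Whole CD-1 mouse embryos of embryonic day 7.5 were pooled (25 litters, about 300 embryos), stained for the surface proteins Endoglin and Flk1, and sorted into 4 fractions: cells with both proteins (Eng+Flk1+), with Endoglin alone (Eng+Flk1-), with Flk1 alone (Eng-Flk1+) and with neither (Eng-Flk1-). Endoglin is a co-receptor for TGF-beta family ligands, and Flk1 (gene Kdr) is the receptor for VEGF that marks blood and vessel precursors. The labels name no engineered allele and no treatment for these embryos. Each fraction was sampled 3 times with 3000 cells, amplified by a global PCR method, and read on 12 one-colour arrays. All samples came from 1 pool of embryos, so p-values reflect only how far repeat sorts of that pool differ, which may be technical. In RNA from sorted populations, fewer cells of a type and less RNA per cell cannot be told apart.

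Eph receptors are tyrosine kinases bound by membrane-held ephrins on a neighbouring cell, and both partners can signal. Semaphorins act mostly through plexins, and most secreted class 3 semaphorins also need a neuropilin. Slits are secreted and bind Robo receptors. These systems are best known from axon growth, and the pair of ephrin-B2 and EphB4, the receptor plexin D1 and the receptor Robo4 are also known from blood vessels.

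Levels are given as the log2 of the signal minus that of the array's 75th percentile, so 0 is that percentile and a difference of 1 is a doubling of signal. A gene was called changed at an adjusted p under 0.05 from limma, with Benjamini-Hochberg adjustment over all 22719 genes tested. Between 66.5% and 83.3% of the spots of an array were well above background, the lowest share being that of Eng-Flk1- replicate 3. The 3 Eng-Flk1- arrays resembled each other least: pairwise Pearson correlations across genes were 0.845 to 0.932 within the other fractions, against 0.670 to 0.737 within this one. All 3 Eng-Flk1- arrays were on slide 1, beside 1 Eng-Flk1+ array, and all 3 Eng+Flk1- arrays were on slide 3. A difference between these 2 fractions cannot be told apart, by direct comparison, from one between slides. Kdr averaged 1.64 ± 0.18 in Eng+Flk1+ cells and 1.11 ± 0.76 in Eng-Flk1+ cells, against -5.38 ± 1.87 in Eng+Flk1- cells and -6.20 ± 1.56 in Eng-Flk1- cells (SD, n = 3 each). Eng averaged 2.10 ± 0.93 in Eng+Flk1+ cells, 0.48 ± 0.55 in Eng+Flk1- cells, 0.49 ± 1.02 in Eng-Flk1+ cells and -0.49 ± 0.86 in Eng-Flk1- cells, so its transcript did not separate Eng+Flk1- from Eng-Flk1+ cells. Nor did Eng pass the test in Eng+Flk1- over Eng-Flk1- (log2 fold 0.97, limma adjusted p = 0.552) or for the mean of the Endoglin positive over the Endoglin negative fractions (1.29, limma adjusted p = 0.431).

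A pair of semaphorin transcripts set the Eng+Flk1- fraction apart from Eng-Flk1- cells. Sema3b and Sema4a were the 2 of 54 tested guidance genes that passed the test, both higher in Eng+Flk1- cells. In that comparison 1.46% of all genes tested passed, 1.23% as higher. No guidance gene passed the test in the other 6 comparisons. The share of all genes that passed was 1.22% for the mean of the Flk1 positive over the Flk1 negative fractions and 0.291% for the mean of the Endoglin positive over the Endoglin negative ones. It was 1.91% for Eng-Flk1+ over Eng-Flk1-, 0.295% for Eng+Flk1+ over Eng+Flk1-, 0.0264% for Eng+Flk1+ over Eng-Flk1+, and 0.273% for the interaction of Flk1 and Endoglin. At an unadjusted limma p under 0.05, there were 6 guidance genes for Flk1, beside 11.9% of all genes, and 8 for Endoglin, beside 8.86%. There were 8 for Eng-Flk1+ over Eng-Flk1- (all genes 17.7%), 6 for Eng+Flk1+ over Eng+Flk1- (6.6%), 3 for Eng+Flk1+ over Eng-Flk1+ (4.78%), 9 for Eng+Flk1- over Eng-Flk1- (14.4%) and 7 for the interaction (10.5%).

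**Figure D1:**
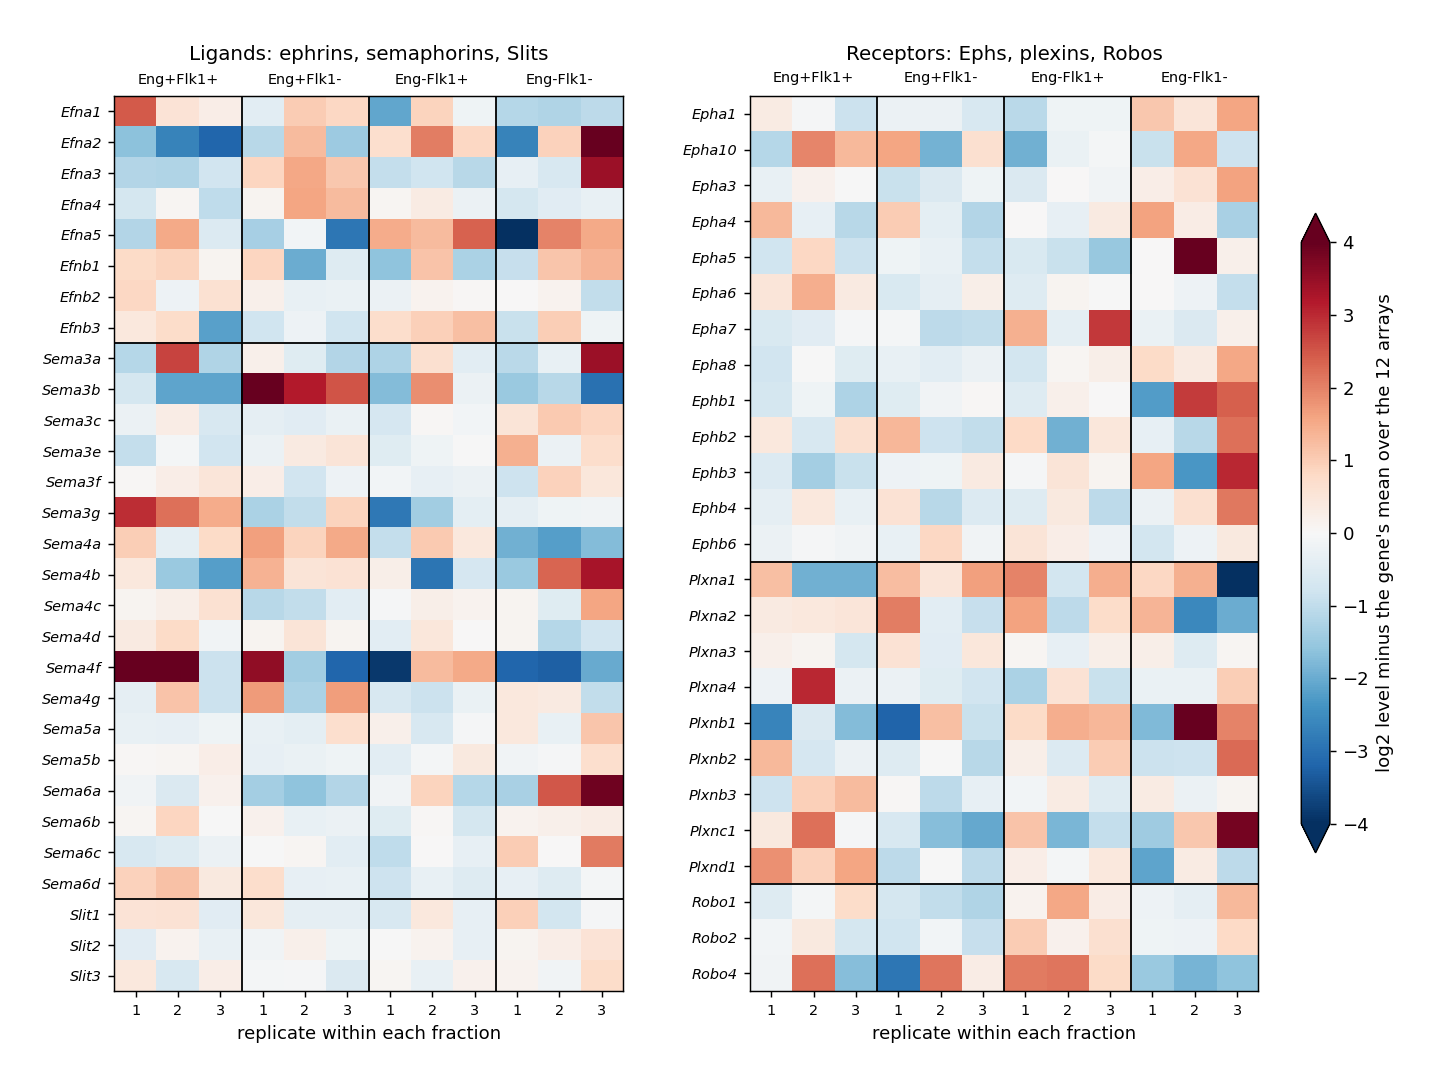
Level of each of the 54 tested guidance genes (rows, ligands left and receptors right, families divided by lines) on each of the 12 arrays (columns), as the log2 level minus the gene's own mean over the arrays. Sema3b is high on the 3 Eng+Flk1- arrays, Sema3g on the 3 Eng+Flk1+ arrays, and Eng-Flk1- replicate 3 holds the highest value of 20 of the 54 genes.

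Sema3b encodes a secreted class 3 semaphorin, a ligand that signals through neuropilins and plexins. Its level was 0.84, -0.89 and -1.54 on the Eng+Flk1- arrays, against -5.54, -5.19 and -7.04 on the Eng-Flk1- arrays. On the remaining arrays it was -4.78, -6.16 and -6.17 in Eng+Flk1+ cells and -5.81, -2.21 and -4.29 in Eng-Flk1+ cells. The lowest Eng+Flk1- array lay above every other array. Sema3b rose in Eng+Flk1- over Eng-Flk1- cells by a log2 fold of 5.39 ± 0.95 (SE, limma adjusted p = 0.0231). Its probe (chr9:107456662-107456721 in build mm8, minus strand) was well above background on 2 of 3 Eng+Flk1+ and 2 of 3 Eng-Flk1- arrays and on all arrays of the other fractions.

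The same gene had the lowest p of all guidance genes within the Endoglin positive cells, without passing the test. The log2 fold of Eng+Flk1+ over Eng+Flk1- was -5.17 ± 0.95 (SE, limma adjusted p = 0.0645), and on slide 3, which holds 1 and 3 arrays of these fractions, it was -5.64. The interaction, the Flk1 difference with Endoglin minus the one without it, was -6.99 ± 1.35 (SE, limma adjusted p = 0.0748). Sema3f, the neighbouring class 3 gene in the same stretch of chromosome 9 (probe at chr9:107540558-107540617, mm8), showed no such pattern. Sema3f averaged -0.77 in Eng+Flk1+ cells, -1.27 in Eng+Flk1- cells, -1.25 in Eng-Flk1+ cells and -0.85 in Eng-Flk1- cells.

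Sema4a encodes a membrane-anchored class 4 semaphorin. Its level was -1.27, -2.04 and -1.42 on the Eng+Flk1- arrays, against -4.84, -5.14 and -4.64 on the Eng-Flk1- arrays. It was -1.93, -3.32 and -2.16 in Eng+Flk1+ cells and -3.89, -1.87 and -2.51 in Eng-Flk1+ cells. The 3 Eng-Flk1- arrays were the 3 lowest of the 12, and the other 3 fractions overlapped each other. Sema4a rose in Eng+Flk1- over Eng-Flk1- cells by a log2 fold of 3.30 ± 0.58 (SE, limma adjusted p = 0.0226). The folds were 2.12 ± 0.58 for Eng-Flk1+ over Eng-Flk1- (limma adjusted p = 0.107) and 1.79 ± 0.41 for the mean of the Endoglin positive over the Endoglin negative fractions (limma adjusted p = 0.135).

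Both of these calls rest on fractions that were on different slides, and a slide block and several processing choices ended them. With slide as a block, Sema3b had a log2 fold of 3.53 ± 2.06 and Sema4a of 1.13 ± 1.19 (SE, limma adjusted p = 1.00 for each), and Eng+Flk1- and Eng-Flk1- arrays share no slide, so no within-slide value exists. With normexp background correction the log2 folds were 2.26 for Sema3b and 1.11 for Sema4a (limma adjusted p = 0.0974 and 0.259). Leaving out 1 array ended calls while the folds stayed at 4.71 to 5.57 for Sema3b and 3.15 to 3.53 for Sema4a: the limma adjusted p of Sema3b was 0.0835 and 0.0702 without Eng+Flk1- replicates 1 and 2 and 0.0536 once Eng-Flk1- replicate 3 was dropped, and that of Sema4a was 0.0837, 0.0548 and 0.0874 without Eng+Flk1- replicates 1, 2 and 3.

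Markers of other cell types moved with the Eng+Flk1- fraction. The mean level of 10 genes of trophoblast and extraembryonic ectoderm was 0.24 to 0.75 on the Eng+Flk1- arrays, against -2.94 to -2.30 on the Eng-Flk1- arrays, and 3 of the 10 rose between these fractions. On the other arrays it was -3.15 to -2.15 in Eng+Flk1+ cells and -2.31 to -1.81 in Eng-Flk1+ cells. All 10 were well above background on each Eng+Flk1- array, and Gcm1, a defining factor of one trophoblast lineage, was not well above background on any Eng-Flk1- array. The 11 tested markers of visceral endoderm ran the other way, with a mean level of -1.57 to -1.25 on the Eng+Flk1- arrays, against 1.33 to 1.64 on the Eng-Flk1- arrays, and 6 of the 11 fell. The mean level of 12 genes of mesoderm and allantois was -1.67 to -0.74 on the Eng+Flk1- arrays, against -3.65 to -3.27 on the Eng-Flk1- arrays, and 3 of the 12 rose. In Eng+Flk1- over Eng-Flk1-, 9 of the 12 folds were positive and 3 negative, the lowest -1.99. The mean level of this list was -2.14 to -1.13 in Eng+Flk1+ cells and -1.07 to -0.52 in Eng-Flk1+ cells, so it was lowest in Eng-Flk1- cells. Twist1 and Snai1, mesoderm factors of that list, were not well above background on any Eng-Flk1- array, where 9 to 10 of the 12 were. Of 9 tested markers of epiblast and neuroectoderm, 2 fell in Eng+Flk1- over Eng-Flk1- cells. The part of these cell types in the Sema3b and Sema4a results was not tested.

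**Figure D2:**
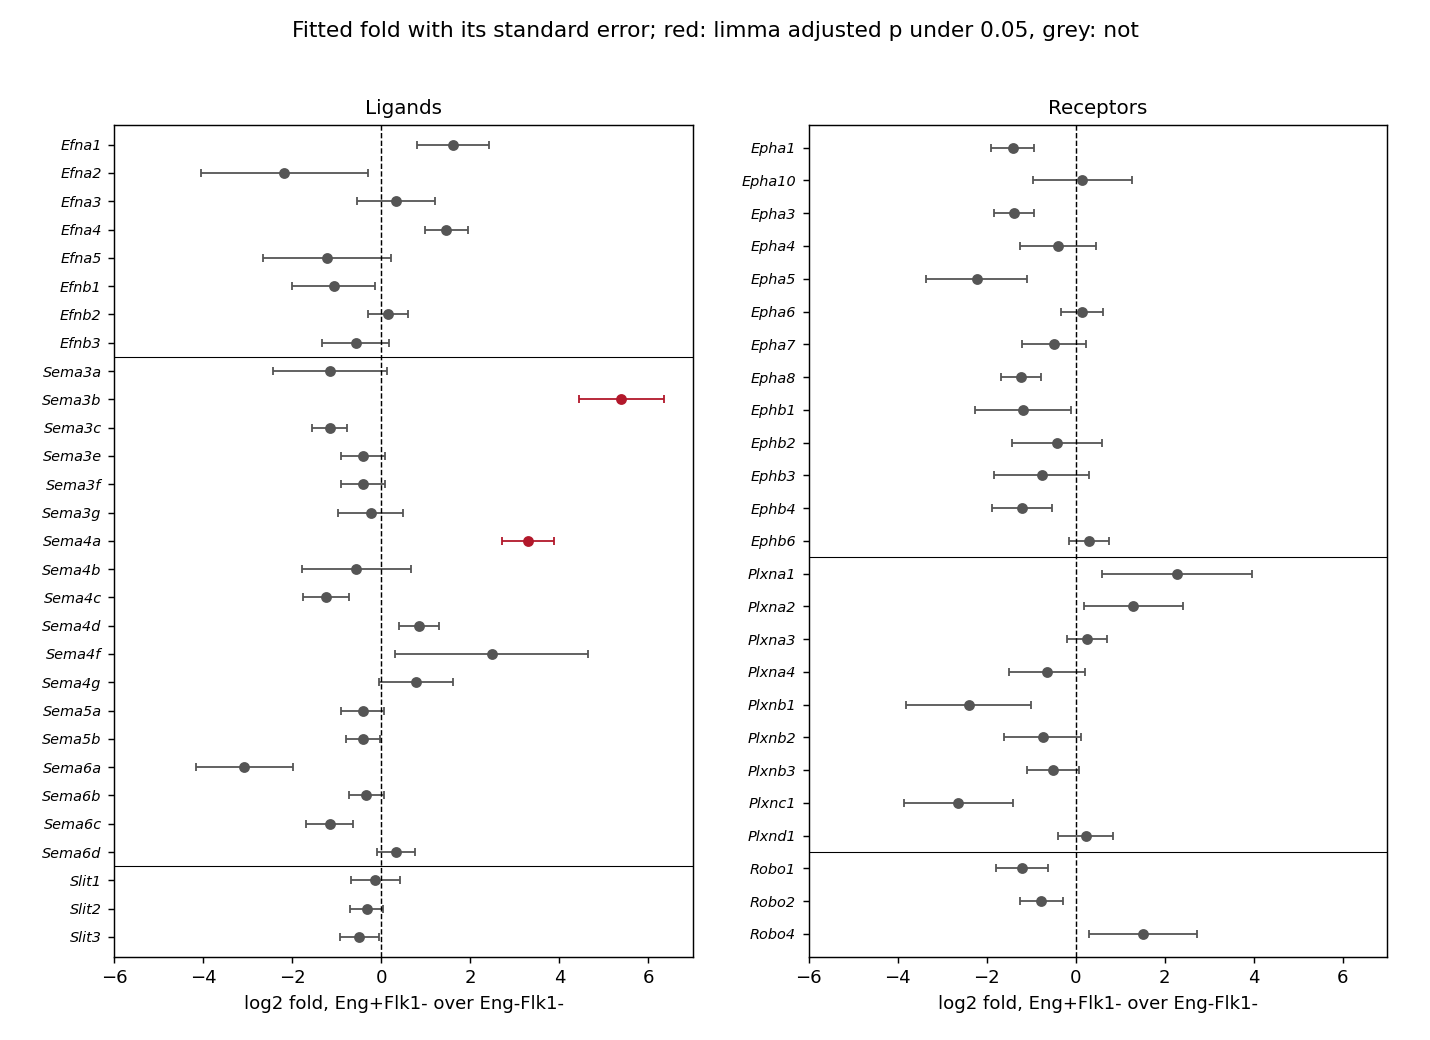
Fitted log2 fold of Eng+Flk1- over Eng-Flk1- cells with its standard error for the 29 tested ligands (left) and 25 tested receptors (right), red where the limma adjusted p was under 0.05. Sema3b and Sema4a are the 2 red points, and 36 of the 54 folds lie below 0, beside 11918 of 22719 over all genes.

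Among the ephrins, 3 neighbouring genes of chromosome 3 gave different profiles. Ephrin-A ligands are held by a lipid anchor, and the probes of Efna1, Efna3 and Efna4 start at 89358176, 89400573 and 89420185 on chromosome 3 in build mm8. Efna3 was at -2.47, -2.53 and -2.08 in Eng+Flk1+ cells and -2.26, -2.10 and -2.41 in Eng-Flk1+ cells, against -0.45, 0.23 and -0.25 in Eng+Flk1- cells and -1.64, -1.94 and 2.11 in Eng-Flk1- cells. All 6 Flk1 positive arrays thus lay below all 6 Flk1 negative arrays, which 0.475% of all genes also did. The log2 fold of the Flk1 positive over the Flk1 negative fractions was -1.98 ± 0.62 (SE, limma adjusted p = 0.210), and within Endoglin positive cells it was -2.20 ± 0.88 (limma adjusted p = 0.662). Without Eng-Flk1- replicate 3, whose value stood far above the other arrays of its fraction, the limma adjusted p was 0.0352 for the mean comparison and 0.0306 for Eng+Flk1+ over Eng+Flk1-. Of the alternative settings, 1 of 22 passed for the mean comparison and 2 of 25 for Eng+Flk1+ over Eng+Flk1-.

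Efna4 was at -0.06, 0.71 and -0.38 in Eng+Flk1+ cells, against 0.75, 2.22 and 1.91 in Eng+Flk1- cells. It was at 0.72, 0.97 and 0.40 in Eng-Flk1+ cells, against -0.04, 0.19 and 0.36 in Eng-Flk1- cells. Eng+Flk1- arrays lay above the Eng+Flk1+ and the Eng-Flk1- arrays but overlapped the Eng-Flk1+ ones. Its log2 fold was -1.54 ± 0.48 for Eng+Flk1+ over Eng+Flk1- (SE, limma adjusted p = 0.402) and 1.46 ± 0.48 for Eng+Flk1- over Eng-Flk1- (limma adjusted p = 0.197).

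Efna1, a ligand of EphA receptors first found in endothelial cells, was at 0.84, -1.07 and -1.37 in Eng+Flk1+ cells and -2.04, -0.59 and -0.80 in Eng+Flk1- cells, against -3.69, -0.72 and -1.78 in Eng-Flk1+ cells and -2.76, -2.82 and -2.66 in Eng-Flk1- cells. Eng-Flk1+ arrays spanned most of the range of the gene. Its log2 fold of the Endoglin positive over the Endoglin negative fractions was 1.57 ± 0.57 (SE, limma adjusted p = 0.406).

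Efna2 was at -6.98, -8.01 and -8.50 in Eng+Flk1+ cells, not well above background on any of these arrays, against -4.66, -3.30 and -4.52 in Eng-Flk1+ cells. On the Flk1 negative arrays it was at -6.45, -4.06 and -6.78 in Eng+Flk1- cells and at -7.99, -4.40 and 1.64 in Eng-Flk1- cells. A bound takes the place of a fold here: the dim side is set, per array, to the lowest signal among probes well above background where the probe itself is dimmer. By it Efna2 was at least 3.92-fold lower in Eng+Flk1+ than in Eng-Flk1+ cells, a difference that did not pass the test. Efna5 ranged from -6.16 to -0.08 within Eng-Flk1- cells alone, the widest spread of that gene in a fraction.

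The ephrin-B ligands span the membrane and are bound by EphB receptors. Efnb2, a marker of arteries, was at 1.22, 0.19 and 0.99 in Eng+Flk1+ cells and 0.58, 0.09 and 0.12 in Eng+Flk1- cells, against 0.16, 0.53 and 0.44 in Eng-Flk1+ cells and 0.42, 0.54 and -0.60 in Eng-Flk1- cells. The 4 fractions overlapped. Efnb1 averaged -0.19 ± 0.42 in Eng+Flk1+ cells, -1.33 ± 1.42 in Eng+Flk1- cells, -1.37 ± 1.5 in Eng-Flk1+ cells and -0.26 ± 1.25 in Eng-Flk1- cells (SD, n = 3 each). Efnb3 averaged 1.20 ± 1.59 in Eng+Flk1+ cells, 0.94 ± 0.35 in Eng+Flk1- cells, 2.49 ± 0.24 in Eng-Flk1+ cells and 1.51 ± 0.95 in Eng-Flk1- cells. Neither passed the test in any of the 7 comparisons.

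A second class 3 semaphorin, Sema3g, was highest in the Eng+Flk1+ cells. Sema3g is a secreted ligand known from arterial endothelium. It was at -0.83, -1.59 and -2.31 in Eng+Flk1+ cells, against -5.05, -4.77 and -2.90 in Eng+Flk1- cells. In Endoglin negative cells it was at -6.65, -5.19 and -4.18 with Flk1 and at -4.14, -3.95 and -3.91 without it. The 3 Eng+Flk1+ arrays were the 3 highest of the 12. Its probe was well above background on only 2 of 3 Eng-Flk1+ arrays, which limits folds against that fraction. The log2 fold was 3.76 ± 0.74 for Eng+Flk1+ over Eng-Flk1+ (SE, limma adjusted p = 0.198) and 2.67 ± 0.74 for Eng+Flk1+ over Eng+Flk1- (limma adjusted p = 0.278), so neither passed the test. Within slide 2 the first of these folds was 3.48, and within slide 3 the second was 1.93. The interaction was 4.01 ± 1.04 (SE, limma adjusted p = 0.172).

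Plxnd1, the receptor that binds the ligand Sema3e directly and is needed for the patterning of vessels, had its highest values on the same arrays. It was at 3.33, 2.42 and 3.06 in Eng+Flk1+ cells, against 0.45, 1.47 and 0.44 in Eng+Flk1- cells. It was at 1.78, 1.42 and 1.91 in Eng-Flk1+ cells, against -0.61, 1.84 and 0.46 in Eng-Flk1- cells. All Eng+Flk1+ arrays were above the other 9, and the other fractions overlapped at their edges. The log2 fold of the Flk1 positive over the Flk1 negative fractions was 1.65 ± 0.43 (SE, limma adjusted p = 0.122). With slide as a block it was 1.74 ± 0.68 (SE, limma adjusted p = 0.614). It was 2.15 ± 0.61 for Eng+Flk1+ over Eng+Flk1- (SE, limma adjusted p = 0.297), and 2.27 within slide 3. Without Eng-Flk1- replicate 2, the highest array of its fraction, the mean comparison had a limma adjusted p of 0.0222. That was the only 1 of 22 alternative settings in which it passed.

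The mean level of 12 genes of the vessel lining was also highest on these arrays. It was 1.13 to 1.99 on the Eng+Flk1+ arrays, against -0.76 to -0.22 on the Eng-Flk1+, -2.80 on the 3 Eng+Flk1- and -3.06 to -2.46 on the Eng-Flk1- arrays. Of the 12, 6 rose in Eng+Flk1+ over Eng+Flk1- cells, and at least 10 were above background on every array of every fraction. In Eng-Flk1+ over Eng-Flk1- cells, 3 of the 12 genes rose. Sema3g averaged -5.34 in Eng-Flk1+ cells, against -4.0 in Eng-Flk1- cells, a difference that did not pass the test (limma adjusted p = 0.365). The part of the vessel lining genes in the Sema3g and Plxnd1 values was not tested.

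The 250 bases before the transcription start of Sema3g and Plxnd1 are shown because a secreted ligand and a receptor here had their 3 highest values in the same fraction. Neither gene passed the test. The share of all genes with their 3 highest or 3 lowest values in the same fraction was not counted, for these or for other genes described so. They are RefSeq sequences of build GRCm38.p6 at chr14:31217623-31217872 (plus strand) and chr6:115995006-115995255 (minus strand), each written 5′ to 3′ along its gene. Capitals mark the motifs GGAA (core of ETS factor sites), GATA (core of GATA factor sites) and CAGAC (a SMAD element) on either strand, where GGAA and CAGAC read in opposite senses may share a base.
Sema3g: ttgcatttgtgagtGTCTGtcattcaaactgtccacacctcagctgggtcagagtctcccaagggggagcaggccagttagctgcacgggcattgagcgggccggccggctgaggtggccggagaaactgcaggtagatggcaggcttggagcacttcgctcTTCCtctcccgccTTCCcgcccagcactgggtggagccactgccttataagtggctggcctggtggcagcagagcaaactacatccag
Plxnd1: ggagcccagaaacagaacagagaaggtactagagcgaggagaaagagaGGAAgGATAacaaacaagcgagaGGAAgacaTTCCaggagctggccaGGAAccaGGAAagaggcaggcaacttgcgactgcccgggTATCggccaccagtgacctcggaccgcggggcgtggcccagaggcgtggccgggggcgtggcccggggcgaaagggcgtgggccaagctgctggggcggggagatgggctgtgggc
The Sema3g window held 2 matches to GGAA, 0 to GATA and 1 to CAGAC, and the Plxnd1 window held 5, 2 and 0. Of the 66 windows listed for 50 of the 57 guidance genes, 92.4% held GGAA, 39.4% GATA and 53.0% CAGAC on either strand. The shares were 93.4%, 53.6% and 42.2% across all 32851 promoter windows of this length. A match describes letters only and shows no binding.

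**Figure D3:**
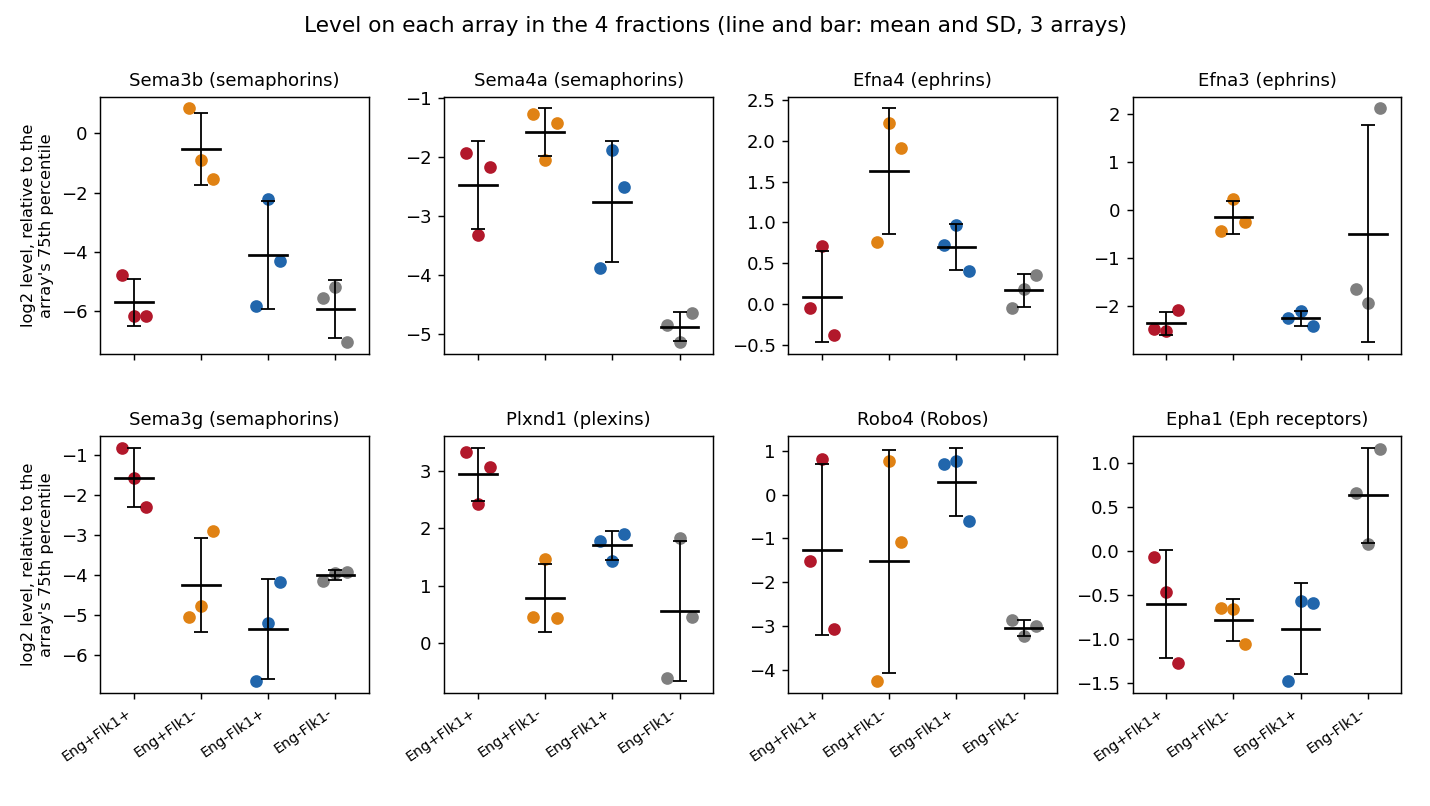
Log2 level relative to the array's 75th percentile on each array (points, 3 per fraction) with mean and SD for 8 guidance genes, with a separate vertical scale in each panel. Sema3b and Sema4a rose in Eng+Flk1- over Eng-Flk1- cells, Sema3g and Plxnd1 have their 3 highest points in Eng+Flk1+ cells, and the remaining panels show genes that did not pass the test.

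Other semaphorins differed less between fractions or spread widely within one. Sema6d, a transmembrane ligand of plexin A1 known from heart development, was at 0.06, 0.33 and -0.48 in Eng+Flk1+ cells and -0.16, -1.18 and -1.15 in Eng+Flk1- cells, against -1.69, -1.17 and -1.37 in Eng-Flk1+ cells and -1.20, -1.37 and -0.93 in Eng-Flk1- cells. Eng+Flk1+ arrays lay above all 6 Endoglin negative arrays. Eng+Flk1+ over Eng-Flk1+ gave a log2 fold of 1.37 ± 0.43 (SE, limma adjusted p = 0.671).

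Sema4c, a ligand of plexin B2, was at 3.04, 3.16 and 3.53 in Eng+Flk1+ cells, against 1.80, 1.93 and 2.49 in Eng+Flk1- cells. The log2 fold between them was 1.17 ± 0.52 (SE, limma adjusted p = 0.755). A second Sema4c probe gave 1.11 for the same difference. Endoglin negative cells overlapped the Eng+Flk1+ arrays, with means of 3.02 with Flk1 and 3.32 without it.

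Sema3c, another secreted ligand, was at -1.97, -1.45 and -2.38 in Eng+Flk1+ cells, -2.10, -2.20 and -2.0 in Eng+Flk1- cells, -2.41, -1.71 and -1.86 in Eng-Flk1+ cells and -1.24, -0.71 and -0.87 in Eng-Flk1- cells. The Eng-Flk1- arrays were the 3 highest of the 12. Eng+Flk1- over Eng-Flk1- gave a log2 fold of -1.16 ± 0.40 (SE, limma adjusted p = 0.215).

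Sema4b was at -1.27, -3.16 and -3.90 in Eng+Flk1+ cells and -1.48, -4.61 and -2.37 in Eng-Flk1+ cells, against -0.31, -1.17 and -1.13 in Eng+Flk1- cells and -3.18, 0.64 and 1.61 in Eng-Flk1- cells. One Eng-Flk1- array lay among the Flk1 positive ones. Flk1 positive over Flk1 negative fractions gave a log2 fold of -2.21 ± 0.87 (SE, limma adjusted p = 0.335).

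Sema6a, a transmembrane ligand of class A plexins, was at -0.67, -0.93 and -0.49 in Eng+Flk1- cells, against -0.62, 3.18 and 4.59 in Eng-Flk1- cells. Eng-Flk1- replicate 1 lay within the Eng+Flk1- range. The log2 fold was -3.08 ± 1.09 (SE, limma adjusted p = 0.228), and the mean over its 3 probes gave 0.51, so the probes of this gene disagreed. Without Eng-Flk1- replicate 1, Sema6a and the receptor Ephb1 passed the test beside Sema3b and Sema4a, which made 4 guidance genes in this comparison.

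Sema4f was at 0.52, 1.25 and -5.67 in Eng+Flk1+ cells and -1.25, -6.19 and -7.98 in Eng+Flk1- cells, against -8.66, -3.53 and -3.28 in Eng-Flk1+ cells and -7.97, -8.07 and -6.83 in Eng-Flk1- cells. It was not well above background on any Eng-Flk1- array. Its bound was at least 19.3-fold higher in Eng+Flk1+ than in Eng-Flk1- cells, a pair of fractions that no test compared, and its Eng+Flk1+ arrays themselves differed by more than 6 log2 units between the 2 brightest and the third.

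Sema3d and Sema7a were not tested. Sema3d was at -8.26, -8.17 and -8.36 in Eng+Flk1+ cells, -8.07, -7.76 and -8.61 in Eng+Flk1- cells, -8.57, -5.40 and -7.56 in Eng-Flk1+ cells and -7.76, -7.97 and -7.21 in Eng-Flk1- cells, well above background on 1 array. Sema7a, a lipid-anchored semaphorin, was at -8.22, -2.52 and -3.59 in Eng+Flk1+ cells, -3.65, -7.96 and -5.96 in Eng+Flk1- cells, -8.15, -8.05 and -6.15 in Eng-Flk1+ cells and -7.98, -5.31 and -7.13 in Eng-Flk1- cells. It was well above background on 2 arrays of each Endoglin positive fraction, on 0 Eng-Flk1+ arrays and on 1 Eng-Flk1- array.

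The remaining 8 semaphorins are given by their fraction means. Sema5b averaged 1.80 ± 0.13 in Eng+Flk1+ cells, 1.41 ± 0.07 in Eng+Flk1- cells, 1.63 ± 0.40 in Eng-Flk1+ cells and 1.82 ± 0.43 in Eng-Flk1- cells (SD, n = 3 each). Sema4d, the ligand of plexin B1, averaged 2.12 ± 0.45 in Eng+Flk1+ cells, 2.04 ± 0.24 in Eng+Flk1- cells, 1.81 ± 0.44 in Eng-Flk1+ cells and 1.20 ± 0.63 in Eng-Flk1- cells. Sema6b averaged 3.29 ± 0.49 in Eng+Flk1+ cells, 2.86 ± 0.25 in Eng+Flk1- cells, 2.59 ± 0.38 in Eng-Flk1+ cells and 3.20 ± 0.07 in Eng-Flk1- cells. By the brightest probe, each of these 3 genes varied by less than 1 log2 unit between fraction means. Sema6c averaged 0.40 ± 0.20 in Eng+Flk1+ cells, 0.75 ± 0.27 in Eng+Flk1- cells and 0.42 ± 0.52 in Eng-Flk1+ cells, against a higher 1.91 ± 1.04 in Eng-Flk1- cells. Sema3e, the ligand of plexin D1, averaged -1.47 ± 0.46 in Eng+Flk1+ cells, -0.66 ± 0.39 in Eng+Flk1- cells, -1.10 ± 0.22 in Eng-Flk1+ cells and -0.25 ± 0.83 in Eng-Flk1- cells. Sema5a had fraction means between -1.41 and -0.73, Sema4g between -1.52 and -0.24, and Sema3a between -4.72 and -3.57. These 8 genes did not pass the test in any of the 7 comparisons.

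By the brightest probe, fraction means of each of the 3 Slits lay within 1 log2 unit. Dimmer Slit2 probes, also well above background on all 12 arrays, had wider ranges of means, from -4.7 to -3.1 and from -5.4 to -3.9. Slit2 was at -0.30, 0.28 and -0.14 in Eng+Flk1+ cells and 0.02, 0.37 and -0.01 in Eng+Flk1- cells, against 0.14, 0.31 and -0.17 in Eng-Flk1+ cells and 0.26, 0.42 and 0.71 in Eng-Flk1- cells, and the fractions overlapped. Slit2 had the lowest p of its family in both mean comparisons, with log2 folds of -0.28 for Flk1 and -0.24 for Endoglin that did not pass the test. Slit1 had fraction means between 0.48 and 0.89, and Slit3 between -0.94 and -0.44.

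Among the receptors, most Eph genes had a higher mean in Eng-Flk1- cells than in either neighbouring fraction, without passing the test. Of the 13 tested Eph receptors, 10 had negative log2 folds in Eng+Flk1- over Eng-Flk1- cells (median -0.77, beside -0.06 over all genes) and 10 in Eng-Flk1+ over Eng-Flk1- cells (median -0.71, beside -0.13). Of all 22719 genes, 11918 and 12387 had negative folds in these comparisons. The lean was not particular to Eph genes: 12 and 14 of 18 semaphorins and all 3 Slits were also negative. Epha1 was at -0.06, -0.46 and -1.26 in Eng+Flk1+ cells, -0.64, -0.65 and -1.05 in Eng+Flk1- cells, -1.48, -0.56 and -0.59 in Eng-Flk1+ cells and 0.66, 0.08 and 1.16 in Eng-Flk1- cells. The Eng-Flk1- arrays were above the other 9. The log2 fold was -1.51 ± 0.48 for Eng-Flk1+ over Eng-Flk1- (SE, limma adjusted p = 0.156) and -1.41 ± 0.48 for Eng+Flk1- over Eng-Flk1- (limma adjusted p = 0.208).

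Epha3, an ephrin-A receptor known from heart development, was at -0.31, 0.16 and -0.02 in Eng+Flk1+ cells, -0.90, -0.58 and -0.17 in Eng+Flk1- cells, -0.58, 0.01 and -0.14 in Eng-Flk1+ cells and 0.27, 0.58 and 1.62 in Eng-Flk1- cells. The Eng-Flk1- arrays were the 3 highest. The log2 fold of Eng+Flk1- over Eng-Flk1- was -1.38 ± 0.45 (SE, limma adjusted p = 0.191). Epha8 was at -6.17, -5.41 and -5.88 in Eng+Flk1+ cells and -5.70, -5.83 and -5.64 in Eng+Flk1- cells, against -6.12, -5.32 and -5.16 in Eng-Flk1+ cells and -4.62, -5.02 and -3.86 in Eng-Flk1- cells. Its Eng-Flk1- arrays were again above the rest, and its log2 fold for Endoglin was -0.76 ± 0.32 (SE, limma adjusted p = 0.508). Epha8 was well above background on only 2 of 3 arrays of each Endoglin positive fraction. The mean level of 9 tested markers of epiblast and neuroectoderm was -1.57 or lower on every array of the other fractions, against -0.12 to 1.03 on the Eng-Flk1- arrays. Of these 9, 1 fell in Eng-Flk1+ and 2 in Eng+Flk1- over Eng-Flk1- cells. The mean level of the 11 visceral endoderm markers was likewise -1.25 or lower on the other arrays, against 1.33 to 1.64 on the Eng-Flk1- arrays, and 5 and 6 of them fell in the same comparisons. The part of both lists in the Eph values was not tested.

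Ephb4, the ephrin-B2 receptor that marks veins, was at 1.99, 2.79 and 2.06 in Eng+Flk1+ cells and 2.92, 1.25 and 1.81 in Eng+Flk1- cells, against 1.83, 2.74 and 1.32 in Eng-Flk1+ cells and 2.12, 3.01 and 4.46 in Eng-Flk1- cells. The fractions overlapped, as they did for the brighter probe of its ligand gene Efnb2. Ephb1 spanned -2.61, 2.41 and 2.03 on the Eng-Flk1- arrays alone, and Ephb3 spanned 2.21, -1.72 and 3.64 there, while the SD of either gene in another fraction was at most 0.53. Epha5 had means between -5.50 and -4.75 in the other fractions, against levels of -4.47, 0.53 and -4.28 in Eng-Flk1- cells. Epha7 was highest in Eng-Flk1+ cells at 0.74, -1.07 and 2.15, with fraction means between -1.39 and -0.91 elsewhere. A second Epha7 probe, also above background on all 12 arrays, averaged -3.35 in Eng-Flk1+ cells, against -2.07 in Eng-Flk1- cells, so the difference was 1.51 by one probe and -1.28 by the other.

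Fraction means of the other tested Eph receptors lay between -1.45 and -1.06 for Epha4, -3.01 and -1.86 for Epha6, -2.90 and -1.42 for Epha10, -0.05 and 0.43 for Ephb2, and -5.08 and -4.71 for Ephb6, a family member without kinase activity. Epha2, not tested, was at -8.19, -4.45 and -4.90 in Eng+Flk1+ cells, -6.08, -4.74 and -5.76 in Eng+Flk1- cells, -6.43, -6.07 and -6.50 in Eng-Flk1+ cells and -6.91, -6.03 and -4.79 in Eng-Flk1- cells. It was well above background on 2 arrays of each Endoglin positive fraction, on 0 Eng-Flk1+ arrays and on 1 Eng-Flk1- array.

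No plexin passed the test in any of the 7 comparisons. Plxnb1, the receptor for Sema4d, was at -3.72, -1.67 and -2.80 in Eng+Flk1+ cells and -4.29, 0.12 and -1.98 in Eng+Flk1- cells, against -0.32, 0.38 and 0.26 in Eng-Flk1+ cells and -2.84, 2.98 and 0.92 in Eng-Flk1- cells. All Eng+Flk1+ arrays were below the Eng-Flk1+ ones, and the other fractions spread widely. The log2 fold for Endoglin was -2.62 ± 0.99 (SE, limma adjusted p = 0.431). Plxna1 was at 1.86, -1.28 and -1.29 in Eng+Flk1+ cells, 1.87, 1.12 and 2.29 in Eng+Flk1- cells, 2.63, -0.09 and 2.10 in Eng-Flk1+ cells and 1.47, 2.06 and -5.08 in Eng-Flk1- cells, so single arrays set its means. Plxnc1, the receptor for Sema7a, was at -0.99, 0.82 and -1.40 in Eng+Flk1+ cells, against -2.01, -3.07 and -3.42 in Eng+Flk1- cells, and it overlapped in the Endoglin negative cells.

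Plxna3 was the flattest of the family, with fraction means between 0.19 and 0.51. Those of Plxnb2, the receptor for Sema4c, lay between 0.38 and 1.16, of Plxnb3 between -1.44 and -0.54, of Plxna2 between -2.17 and -0.67, and of Plxna4 between -4.23 and -2.85.

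Robo4, a Robo of endothelial cells, was at 0.70, 0.77 and -0.60 in Eng-Flk1+ cells, against -2.87, -3.23 and -3.0 in Eng-Flk1- cells. In Endoglin positive cells it was at -1.51, 0.82 and -3.07 with Flk1, against -4.26, 0.77 and -1.08 without it. The Endoglin negative fractions did not overlap and the Endoglin positive ones did. The log2 fold of Eng-Flk1+ over Eng-Flk1- was 3.33 ± 1.22 (SE, limma adjusted p = 0.207), and that of the Flk1 positive over the Flk1 negative fractions was 1.80 (limma adjusted p = 0.443).

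Robo1 was at -0.25, 0.19 and 0.97 in Eng+Flk1+ cells, -0.43, -0.72 and -0.96 in Eng+Flk1- cells, 0.39, 1.81 and 0.55 in Eng-Flk1+ cells and 0.07, -0.12 and 1.56 in Eng-Flk1- cells. The Eng+Flk1- arrays were the 3 lowest. Robo2 was at -1.17, -0.66 and -1.78 in Eng+Flk1+ cells and -1.88, -1.18 and -2.0 in Eng+Flk1- cells, against -0.06, -0.90 and -0.43 in Eng-Flk1+ cells and -1.23, -1.26 and -0.27 in Eng-Flk1- cells. Its log2 fold for Endoglin was -0.75 ± 0.34 (SE, limma adjusted p = 0.558), and 0.22 with slide as a block.

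**Figure D4:**
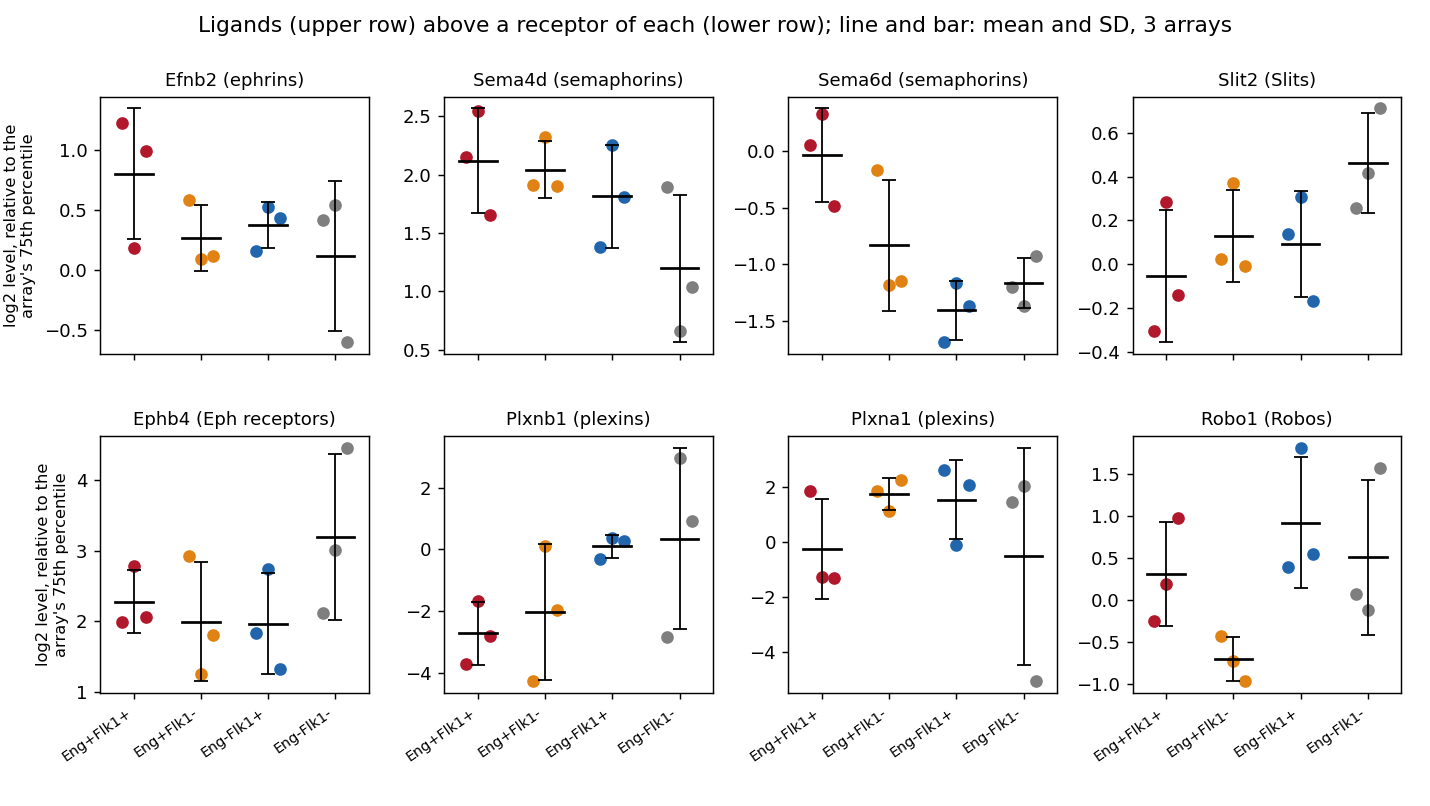
Log2 level relative to the array's 75th percentile on each array (points, 3 per fraction) with mean and SD for 4 ligands (upper row) and a known receptor of each (lower row), with a separate vertical scale in each panel. None of these 8 genes passed the test in any comparison, and Efnb2 and Ephb4 overlap across the 4 fractions by the brightest probe of each, which is the one shown.

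Genes whose arrays did not overlap between 2 fractions were counted beside the same share of all genes. In Eng+Flk1- over Eng-Flk1-, 5 guidance genes lay wholly higher (9.26%, beside 8.94% of all genes) and 7 wholly lower (13.0%, beside 10.1%). In Eng-Flk1+ over Eng-Flk1- it was 3 higher (5.56%, beside 9.42%) and 9 lower (16.7%, beside 12.7%). The lower ones were Efna3, Epha1, Epha3, Epha5, Epha8, Sema3c, Sema3g, Sema6b and Sema6c. In Eng+Flk1+ over Eng+Flk1-, 8 lay higher (14.8%, beside 7.83%), namely Epha6, Plxnc1, Plxnd1, Robo1, Sema3g, Sema4c, Sema5b and Sema6a. Another 6 lay lower (11.1%, beside 7.35%), namely Efna2, Efna3, Efna4, Ephb3, Sema3b and Sema4b. In Eng+Flk1+ over Eng-Flk1+ it was 5 higher (9.26%, beside 7.45%) and 3 lower (5.56%, beside 6.37%). These 4 comparisons share fractions and so are not independent.

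By direction alone, 27 of 54 guidance genes had a positive log2 fold for Flk1 and 27 a negative one, with a median of 0.01, beside -0.09 over all genes. For Endoglin the median was -0.18, beside 0.02 over all genes. Ligands and receptors differed little in Eng+Flk1- over Eng-Flk1- cells, with 19 of 29 ligands (median -0.42) and 17 of 25 receptors (median -0.64) below 0. Over all genes it was 11918 of 22719 (median -0.06). Eng-Flk1- replicate 3 held the highest value of the 12 arrays for 20 of the 54 genes (37.0%, beside 25.5% of all genes), and the median SD of a guidance gene was 0.45 to 0.56 in the other fractions, against 0.84 in Eng-Flk1- cells.

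Co-receptors, other cues and intracellular partners were looked at as 2 lists, of 29 and 66 genes. Of 27 tested co-receptors and other cues, 1 rose and 1 fell in the Flk1 positive over the Flk1 negative fractions. Nrp2, a neuropilin that class 3 semaphorins bind, was at 0.70, 0.75 and -0.95 in Eng+Flk1+ cells and 1.11, -0.20 and 1.23 in Eng-Flk1+ cells, against -1.29, -3.03 and -0.22 in Eng+Flk1- cells and -3.58, -4.16 and -2.91 in Eng-Flk1- cells. It rose with Flk1 by a log2 fold of 2.97 ± 0.55 (SE, limma adjusted p = 0.0282) and in Eng-Flk1+ over Eng-Flk1- cells by 4.26 ± 0.78 (limma adjusted p = 0.0219). Sdc4, a heparan sulfate carrier of the cell surface, fell by 3.64 on the log2 scale with Flk1 (limma adjusted p = 0.00534) and by 4.46 in Eng+Flk1+ over Eng+Flk1- cells (limma adjusted p = 0.0278).

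Of 63 tested effectors and partners, Arhgef15, a guanine nucleotide exchange factor that acts after Eph receptors, rose with Flk1 by a log2 fold of 3.72 ± 0.61 (SE, limma adjusted p = 0.0147). Crmp1, a mediator of semaphorin signals, fell by 5.39 on the log2 scale in Eng+Flk1- over Eng-Flk1- cells (limma adjusted p = 0.0171). Chn2, a GTPase activator for Rac, fell by 2.08 there (limma adjusted p = 0.0407). No other gene of these lists passed the test in any of the 7 comparisons. With slide as a block, none of these 5 genes kept a limma adjusted p under 0.05 (for Flk1, 0.404 for Nrp2, 0.146 for Sdc4 and 0.369 for Arhgef15). The log2 folds for Flk1 were then 2.61 for Nrp2, -3.84 for Sdc4 and 3.40 for Arhgef15, and in Eng+Flk1- over Eng-Flk1- they were -4.59 for Crmp1 and -2.07 for Chn2. The mean of all Nrp2 probes gave a log2 fold of 1.09 for Flk1, and the calls of Nrp2, of Chn2, of Crmp1, of Arhgef15 and of Sdc4 in Eng+Flk1+ over Eng+Flk1- were also lost on leaving out some single arrays.

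Different probes of a gene did not always point the same way. Of 14 guidance genes with several probes well above background on all 12 arrays, the probes shared a sign for 9 in Eng+Flk1- over Eng-Flk1-, 7 in Eng-Flk1+ over Eng-Flk1-, 10 in Eng+Flk1+ over Eng+Flk1- and 8 in Eng+Flk1+ over Eng-Flk1+. In Eng-Flk1+ over Eng-Flk1-, the probes of Epha6, Epha7, Plxna2, Plxnc1, Robo2, Sema5b and Sema6a disagreed in sign. A shared sign did not mean a shared size, since the probes of Plxnb2 gave 0.05 and 3.27 there. Sema3b, Sema4a, Sema3g, Plxnd1, Efna3, Efna4, Robo4 and Epha1 each had 1 probe, and of the 3 probes each of Sema6d and Epha3 only 1 was well above background on all 12 arrays, so this check says nothing of these genes.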

How the data were processed

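RNA of 12 sorted samples was read on one-colour Agilent arrays. Per the file headers, spots were quantified with Agilent Feature Extraction 10.5.1.1 and probe positions refer to build mm8. The processed signal is an intensity per spot, background-subtracted and not scaled between arrays, per the file headers. Flags of 0 or 1 per spot, another kind of value, were deposited beside it. The deposited table of all samples holds the intensity divided by the array's median and served as an alternative.

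The 1639 control spots were left out, which left 43379 spots of 41174 probes, and outlier spots were set aside. The log2 intensity minus the array's 75th percentile was averaged per probe, and the brightest probe stood for a gene. Genes with a signal well above background on every array of a fraction were fitted with limma 3.58.1 (R 4.3.3) over all arrays. The 4 fractions were the groups, and 7 comparisons were made. The fit was tried on simulated data for Eng+Flk1- over Eng-Flk1- alone, with the same spread in all fractions and no slide effect. That trial cannot show how the fit deals with slides, or with the real median SD of 1.01 in Eng-Flk1- cells, against 0.56 to 0.67 in the others. Values per array are given for genes that passed the test, for those with the lowest p of a family in the mean comparisons, for those below background in a whole fraction, and for others chosen after their values were seen. The precision is limited by the 3 arrays per fraction. Members and lists were chosen with earlier results of these data known. Slides, which hold 4 arrays each, were tried as a block.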

Additional observations from a re-analysis of the deposited data

How the results depend on the processing

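Of 1124 values of 49 named folds under 23 alternatives and 4 chosen after seeing the data, 1035 kept their direction and side of the threshold, 73 lost a call, 9 gained one and 7 reversed. Most of these folds were not called in the main fit and had no call to lose, so the 1035 do not measure how stable the calls were. For Eng+Flk1- over Eng-Flk1-, Sema3b stayed called in 14 of 22 alternatives and Sema4a in 13 of 23. In Eng+Flk1- over Eng-Flk1-, the 2 calls became 0 with normexp background correction, quantile scaling, slide as a block, array quality weights, or a fit of only these fractions, and 1 with the authors' table (Sema3b), with genes above background on all 12 arrays (Sema4a) or with a replicate block (Sema3b). Leaving out 1 array gave 0 to 4 calls there and 0 to 2 in Eng-Flk1+ over Eng-Flk1-, with the highest counts of both when Eng-Flk1- replicate 1 was dropped. It gave 0 to 1 for Flk1 (1 without each Eng-Flk1- array), for Eng+Flk1+ over Eng+Flk1- (1 without Eng-Flk1- replicate 3 or Eng-Flk1+ replicate 2) and for the interaction (1 without Eng-Flk1- replicate 2), and 0 elsewhere. In Eng+Flk1+ over Eng+Flk1-, 1 gene was called with the mean of all probes or array quality weights (Sema3b) and without the 3 Eng-Flk1- arrays (Efna3). Reversed folds were 0.22 for Robo2 (Endoglin, slide as a block), -0.0050 for Sema3b (Eng-Flk1+ over Eng-Flk1-, normexp), -0.054 for Sema4a (Flk1, normexp), 0.51 for Sema6a (Eng+Flk1- over Eng-Flk1-, mean of all probes), and for Sema4a in Eng+Flk1+ over Eng-Flk1+ -0.44 with slide as a block and within slide 2 and -0.28 to 0.73 with 1 array left out, the lowest without Eng-Flk1+ replicate 1. The causes were not tested. In the main fit of Eng+Flk1- over Eng-Flk1-, the median fold of all genes was -0.06 and 331 genes were called. The authors' table gave a median of -0.63 and 234 called genes, and slide as a block gave 0 called genes. Samples with the same replicate number showed little common deviation (correlations of -0.107 to 0.188). With 3 arrays per fraction this cannot exclude that the numbers pair samples. The replicate block gave 0 calls in the other comparisons. Signals below background limit Sema4f, Efna2, Sema3d, Epha2 and Sema7a, and on 1 of 3 arrays in Eng+Flk1+ and in Eng-Flk1- cells Sema3b. They also limit genes well above background on only 2 of 3 arrays of a fraction. These were Epha8 in Eng+Flk1+ and in Eng+Flk1- cells, Sema3g and Epha5 in Eng-Flk1+ cells, and Efna5 and Plxna1 in Eng-Flk1- cells.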
